A study of Homo sapiens with 2 samples.

Results

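Pairs of the RBFOX hexamer UGCAUG were examined in the RNA of HEK293T cells, a human embryonic kidney line, after C-to-U editing in fixed cells. Members were all occurrences of UGCAUG on the transcribed strand of hg38, inside the merged exons of the long-read isoform models, whose start lay within 200 nt of the start of another exonic occurrence of the same gene. Only genes listed in the edit tables of both libraries were used. Within these genes the rule used sequence and annotation alone, but a gene was listed only where it had at least 1 edited cytosine in each library. It gave 752 motifs, which chained into 356 groups in 346 genes, of 6775 exonic motifs in 4150 genes (11.1%). The other 6023 motifs had no neighbour within 200 nt and are called single.

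The study fixed HEK293T cells in methanol or in paraformaldehyde, and its long-read methods do not name the fixative. It describes 2 long-read replicates of each group, and the series analysed here holds 2 libraries, 1 per group. In RBFOX2-INSCRIBE, a rabbit antibody against RBFOX2 brought a recombinant fusion of APOBEC1, a cytosine deaminase, and an anti-rabbit nanobody to the protein, while the enzyme-only library received the fusion without that antibody. Both were sequenced as PacBio full-length cDNA. Neither a genotype nor a drug distinguished them, the sample titles name HEK293T while the cell line field reads HEK293XT, and no replicate check of any difference was possible here. No test was therefore made. Intervals are exact 95% Clopper-Pearson intervals, and the upper limit given beside a count of 0 is 3 positions over the cytosines of the window. Both cover counting error only.

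RBFOX proteins bind UGCAUG through a single RNA recognition motif. They are best known as splicing regulators that act from introns beside alternative exons, and they also occupy 3'UTRs. APOBEC1 edits cytosines near the bound protein and by itself favours those preceded by A or U. Closely spaced hexamers offer several possible sites for RBFOX on one RNA.

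The 30 nt around the paired motifs of 6 genes are shown first, because the closest accounts below are of their groups. Together they held a minority of the positions. They are DNA letters of the transcribed strand of hg38, 5' to 3', and the capitals mark UGCAUG and any cytosine listed as edited in the RBFOX2 library. In CALM2 the pair lay at chr2:47160562-47160669 on the minus strand, in the 3'UTR, with starts 102 nt apart.
CALM2 motif 1: gtCaaaaaaataTGCATGtatagtaattag
CALM2 motif 2: CaagtaaCatgtTGCATGtggCttaCtCtg
In ENAH 3 motifs lay at chr1:225496738-225496954 on the minus strand, in the 3'UTR.
ENAH motif 1: tttttagatttaTGCATGtggacattttta
ENAH motif 2: tgCagaCagtaaTGCATGtcacaCtaatat
ENAH motif 3: ttctcagttaCcTGCATGaataaataatga
In MATR3 the pair lay at chr5:139330300-139330488 on the plus strand, in the 3'UTR, 183 nt apart.
MATR3 motif 1: tgaaCagaaattTGCATGtataatttgtgt
MATR3 motif 2: tcttaaactttgTGCATGctttaacaattt
In UCHL5 the motifs were 38 nt apart, at chr1:193016171-193016214 on the minus strand, in the 3'UTR.
UCHL5 motif 1: tCttgtCtttaaTGCATGgattCataaaCt
UCHL5 motif 2: aCctgcatCatgTGCATGtagtgcatatta
The hexamer can also overlap itself by 2 bases, which gives starts 4 nt apart. This was the commonest spacing of all, with 34 of the 396 neighbour spacings, and it is shown in the 3'UTR of RAP1GDS1 at chr4:98442200-98442229 on the plus strand.
RAP1GDS1 overlapping motifs: ccataccaCttgTGCATGCATGtgatgttc
In ID4 a spacing of 8 nt left 2 bases between the motifs, at chr6:19839987-19840016 on the plus strand, in the 3'UTR.
ID4 both motifs: agctagtggtCtTGCATGatTGCATGagat

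A position is a cytosine listed in one library only, in an exon and on the strand of its gene. Positions listed in both libraries were left out, and 49 of those lay near paired motifs. A window took in all exonic bases up to 50 nt from the nearest motif base. The expected number spread each gene's exonic positions evenly over its exonic cytosines. In all, the RBFOX2 library had 102188 such positions and the enzyme-only library 84465, a ratio of 1.21. The tables gave 2431345 and 2233600 gene reads, with a median of 96 and 87 per listed gene. The depth behind a position is known only as the reads of its whole gene, not as the reads that cross the base. Cytosines were listed above an edit fraction of 0.2%, so below 500 reads 1 converted read sufficed, while better-covered genes needed more. Genes with a pair had a median of 158.5 and 136.5 reads, against 137 and 124 over all genes of both tables with a model. Of the epithelial and other markers looked up, KRT18 (a keratin of simple epithelia) had 417 and 411 reads, and VIM, KRT8, PTPRC, ALB and HBB were not among the genes listed in both tables.

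Editing lay near paired motifs more densely in the RBFOX2 library than in the enzyme-only library. Among the 13591 cytosines within 50 nt of paired motifs, 378 were RBFOX2 positions (2.78%, 2.51 to 3.07) and 153 were enzyme-only positions (1.13%, 0.955 to 1.32). RBFOX2 positions stood at 1.78 times the expected number (1.61 to 1.96), and enzyme-only positions at 0.938 times (0.797 to 1.09). The RBFOX2 library held 71.2% of the positions near paired motifs (67.1 to 75.0), against 54.7% over all exons (54.5 to 55.0). Around single motifs the observed over expected number was 1.53 (1.48 to 1.58) for RBFOX2 and 0.935 (0.891 to 0.980) for enzyme-only. The RBFOX2 intervals of paired and single motifs did not overlap, while the enzyme-only intervals did. That separation was narrow, and it was lost without CALM2, the gene with the most positions (1.72, 1.56 to 1.90, against 1.53, 1.48 to 1.58), and with a spacing of up to 100 nt (1.79, 1.55 to 2.05, against 1.54, 1.49 to 1.59). The difference between paired and single was smaller than that between the libraries, at a ratio of 1.16.

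Most groups carried few positions. Of the 356 groups, 75 had positions in the RBFOX2 library only, 37 in the enzyme-only library only, 56 in both and 188 in neither. There were 26 groups with at least 5 RBFOX2 positions and 4 with at least 5 enzyme-only positions. The RBFOX2 library had 1.21 times the exonic positions of the enzyme-only library. These counts were not set beside those of other exonic windows, so they do not show what is particular to pairs. The 10 groups with the most positions held 81 of the 378 RBFOX2 positions. Groups tied at 9 positions were taken here by start coordinate. This put GJA1 in place of HES1, which is among the groups named below for most positions.

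The positions were next sorted by the spacing between the starts of the motifs. No spacing class of 2 motifs stood apart from the others, and groups of 3 or more motifs had the highest RBFOX2 value. The value was 2.33 (1.51 to 3.42) for the 42 groups spaced by 1 to 10 nt, from 24 positions. It was 1.68 (1.00 to 2.61) for the 34 groups at 11 to 25 nt and 1.70 (1.24 to 2.25) for the 45 groups at 26 to 50 nt. At 51 to 100 nt, in 71 groups, it was 1.51 (1.19 to 1.89), and over 100 nt, in 136 groups, 1.71 (1.47 to 1.97). All 5 intervals overlapped one another. With at least 2 converted reads the value was 7.68 (3.67 to 13.3) at 1 to 10 nt, from 9 positions, and 1.45 (0.177 to 4.98) at 11 to 25 nt, 3.13 (1.79 to 4.98) at 26 to 50 nt, 2.44 (1.52 to 3.66) at 51 to 100 nt and 2.18 (1.65 to 2.82) over 100 nt. The interval at 1 to 10 nt then lay above those of the classes beyond 50 nt, but its 9 positions came from ID4 (4) and FTH1 (5) alone, of 42 groups. FTH1, which encodes the ferritin heavy chain, was named after its values were seen. It had 2913 and 2654 gene reads, where a cytosine needed at least 6 converted reads to be listed. The limit of 2 converted reads could therefore not remove its positions. The 27 pairs that overlapped by 2 bases had 16 RBFOX2 positions and a value of 2.16 (1.24 to 3.44). In the enzyme-only library the classes ranged from 0.686 (0.277 to 1.40) at 11 to 25 nt to 1.097 (0.796 to 1.47) at 51 to 100 nt, and every interval included 1.

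**Figure D1:**
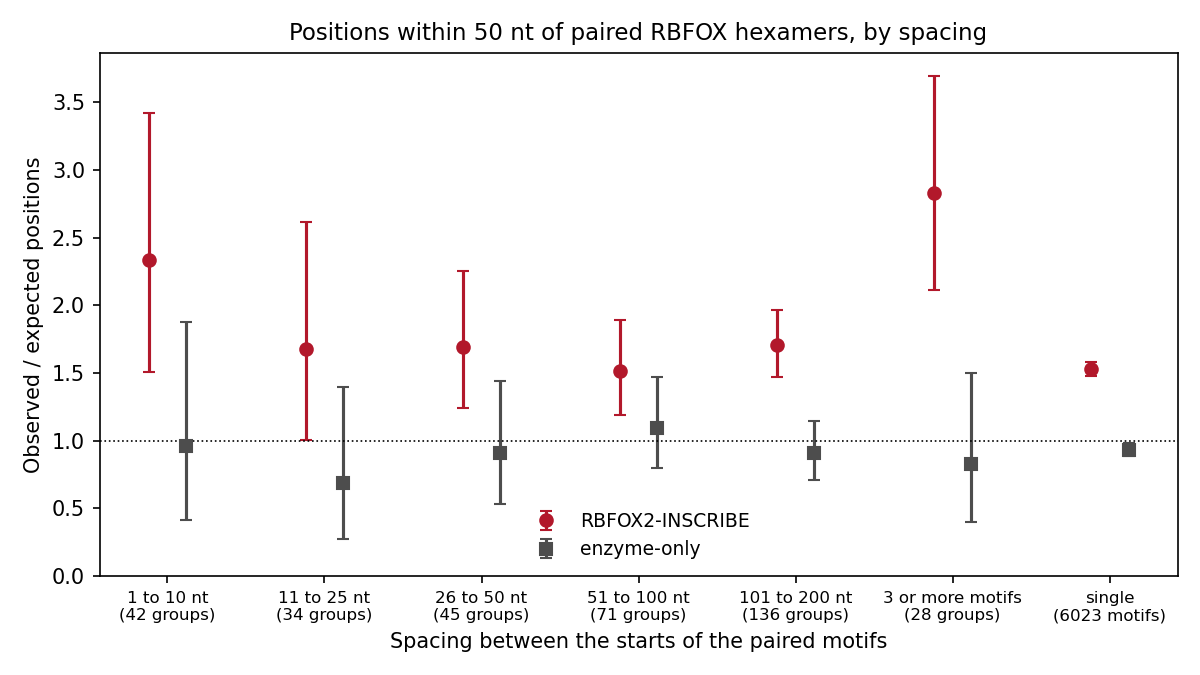
Observed over expected positions within 50 nt of the motifs (vertical axis) for each spacing class, for groups of 3 or more motifs and for single motifs (horizontal axis). Circles are RBFOX2-INSCRIBE, squares are enzyme-only, bars are exact 95% intervals of counting error and the dotted line is the even spread within genes. All 6 RBFOX2 values for paired motifs lie above 1, between 1.51 and 2.83, and the enzyme-only bars all cross 1 except that of single motifs.

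The 28 groups of 3 or more motifs had 46 RBFOX2 positions, 2.83 times the expected number (2.11 to 3.69), and 10 enzyme-only positions (0.826, 0.399 to 1.497). ENAH alone contributed 13 of the 46. Without it the value was 2.13 (1.49 to 2.93), and the interval then overlapped those of all classes of 2 motifs. In the 1 to 10 nt class, leaving out ID4, with 7 of the 24 positions, gave 1.83 (1.08 to 2.89). The value without UCHL5 was 1.36 (0.937 to 1.90) in the class of 26 to 50 nt, so that the interval included 1, and the same held at 11 to 25 nt without GDE1 (1.41, 0.779 to 2.34). The classes of 51 to 100 nt and over 100 nt had values of 1.41 (1.096 to 1.78) without KLHDC2 and 1.59 (1.36 to 1.85) without CALM2.

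CALM2, one of the genes for the calcium sensor calmodulin, had the most positions of any group. It had 19 RBFOX2 positions and 1 enzyme-only position among 41 cytosines, with 1816 and 1271 gene reads, and a further 5 cytosines were listed in both libraries. The RBFOX2 positions were divided between the motifs, with 9 within 50 nt of the first and 10 within 50 nt of the second. The most edited, 23 nt from the start of the first motif, had 21 converted reads, 1.16% of the gene's reads. At these depths a cytosine needed at least 4 converted reads to be listed with RBFOX2-INSCRIBE and 3 with enzyme-only, so the lower minimum was on the side with the single position.

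ENAH, which encodes an actin regulator of the Ena/VASP family, had 13 RBFOX2 positions and 0 enzyme-only positions of 40 cytosines, which allows an enzyme-only share of up to 7.50%. Its positions surrounded all 3 motifs, with 5, 7 and 5 within 50 nt of motifs 1, 2 and 3, some of them counted for 2 motifs. They had 2 to 8 converted reads of 960. UCHL5, a deubiquitinase of the proteasome, had 12 positions against 0 of 30 cytosines (up to 10%), and CCNL2, a cyclin associated with splicing, had 12 against 1. All 12 of the CCNL2 positions had 1 converted read, whereas UCHL5 had up to 6 reads at one cytosine between its motifs.

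MATR3, which encodes the nuclear RNA-binding protein matrin 3, differed from CALM2 in where its positions lay. All 9 RBFOX2 positions were within 50 nt of the first motif, of 19 cytosines there, and none of the 17 cytosines around the second was listed, which allows a share of up to 17.6%. The enzyme-only library had 0 positions in the group. The 9 positions had 3 to 14 converted reads of 838, and the highest, 21 nt from the start of the first motif, reached 1.67% of reads.

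**Figure D2:**
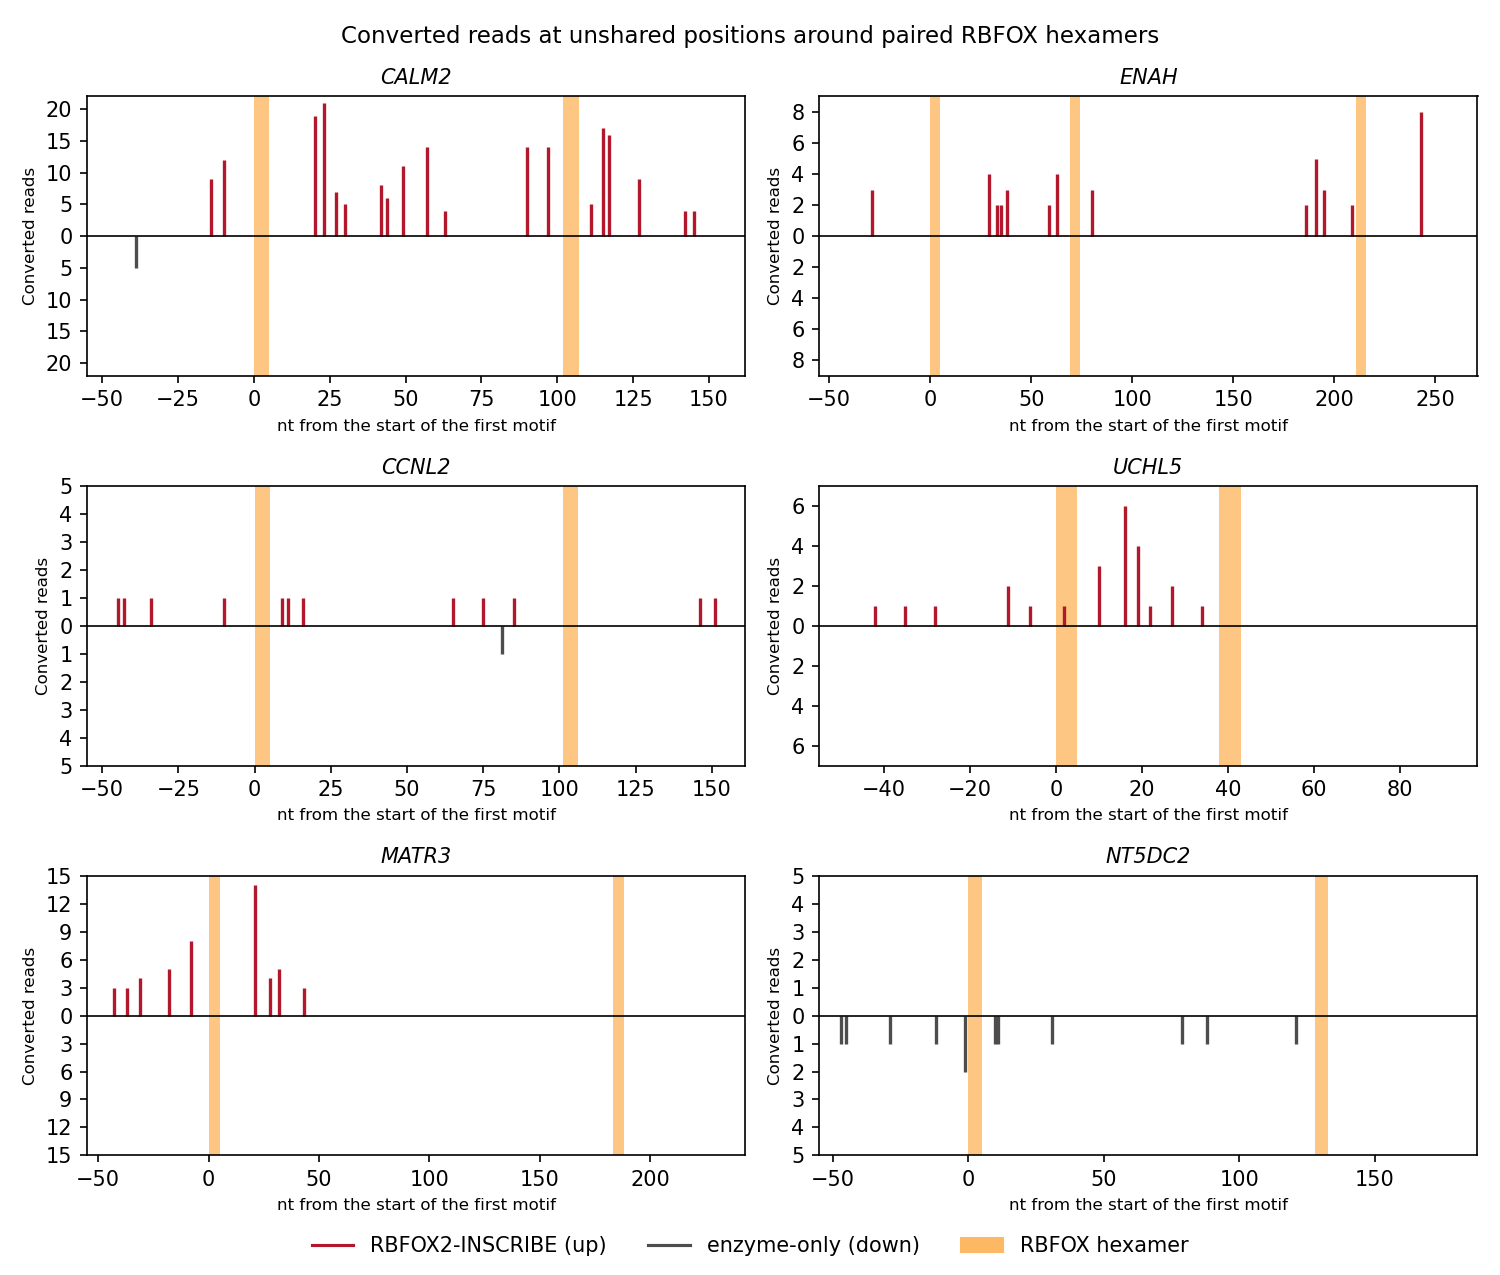
Converted reads at each unshared position (vertical axis, RBFOX2-INSCRIBE up and enzyme-only down) against the distance in nt from the start of the first hexamer (horizontal axis) in 6 genes, with the hexamers as orange bands. The scale of the vertical axis differs between genes. CALM2 and ENAH have RBFOX2 positions beside every hexamer, MATR3 only beside the first, and NT5DC2 has enzyme-only positions alone.

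The other groups named by their RBFOX2 positions had lower counts and the same direction. PRNP, the prion protein gene, and RAP1GDS1, an exchange factor for small GTPases, each had 8 RBFOX2 positions and 0 enzyme-only positions, among 17 and 53 cytosines (up to 17.6% and 5.66%). CCNG2, encoding cyclin G2, had 8 against 1 at only 57 and 40 reads. ID4, an inhibitor of DNA-binding transcription factors, and KLHDC2, a substrate receptor of a ubiquitin ligase, had 7 against 0 each. The strongest ID4 position, 14 nt beyond its second motif, had 8 converted reads, 2.07% of the gene's 386 reads. GDE1, a glycerophosphodiester phosphodiesterase, had 4 against 1, the most in the class of 11 to 25 nt.

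**Figure D3:**
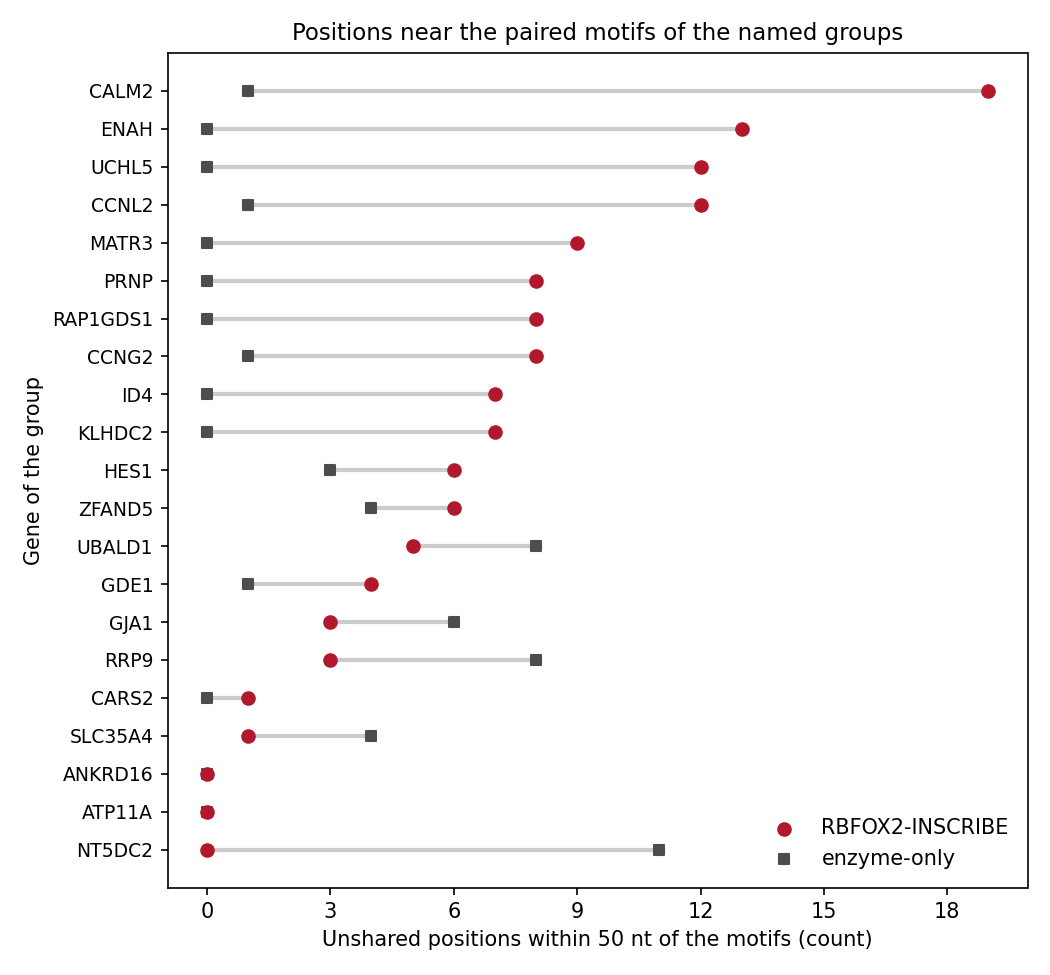
Number of unshared positions within 50 nt of the motifs (horizontal axis) in the 21 groups named by rule (vertical axis), with circles for RBFOX2-INSCRIBE and squares for enzyme-only joined by a line. In CALM2 the counts are 19 and 1, in NT5DC2 0 and 11, and in ANKRD16 and ATP11A both are 0.

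Some groups went the other way. NT5DC2, a gene of the 5'-nucleotidase domain family, had 0 RBFOX2 positions and 11 enzyme-only positions among 67 cytosines. Its reads straddled the listing limit, with 509 in the RBFOX2 library, where 2 converted reads were needed, and 411 in the enzyme-only library, where 1 sufficed, and 10 of the 11 positions had 1 converted read. The whole gene had 5 RBFOX2 positions and 76 enzyme-only positions. Only 4 of the 356 groups lay in genes with 500 reads or more in one library and fewer in the other, and the other 3 had 0 or 1 position in all. RRP9, which encodes a protein of the U3 small nucleolar ribonucleoprotein, had 3 against 8 at equal minimums. SLC35A4, a nucleotide sugar transporter family gene, had 1 against 4, GJA1, the gene for connexin 43, had 3 against 6, and UBALD1 had 5 against 8. HES1, a transcriptional repressor of Notch signalling, and the zinc finger gene ZFAND5 were named for their total positions. They were not lower in the RBFOX2 library, with 6 against 3 and 6 against 4.

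Few or no positions lay near the 3 groups named for their number of motifs. The group with the most, in CARS2 (mitochondrial cysteinyl-tRNA synthetase), held 8 motifs in a tandem repeat at chr13:110662182-110662460 on the minus strand, in isoform sequence outside GENCODE exons. Its 7 spacings were 38, 39 or 41 nt, and 4 of the 9 spacings of 39 nt in the whole set came from it. It had 1 RBFOX2 position and 0 enzyme-only positions among 87 cytosines, with 138 and 130 reads. Its first 3 motifs illustrate the repeat.
CARS2 motif 1: ggagcacagggtTGCATGacacagaggaag
CARS2 motif 2: gggccaCggggtTGCATGacgcagaggggg
CARS2 motif 3: cagccacggggtTGCATGgtatgcagtggg
ATP11A, a phospholipid flippase gene with 5 motifs, and ANKRD16, with 4, had 0 positions in both libraries, among 134 cytosines at 22 and 30 reads and 88 cytosines at 54 and 48 reads. These counts allow a share of up to 2.24% in ATP11A and 3.41% in ANKRD16, bounds close to the 2.78% of all paired windows. The whole genes had few exonic positions themselves. Their RBFOX2 and enzyme-only counts were 1 and 1 in ATP11A, 12 and 2 in ANKRD16 and 9 and 14 in CARS2. With so few, these groups cannot show whether a long run of motifs brings positions.

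Groups of at least 5 positions were compared by the log2 ratio of the libraries, scaled by their total positions and with 0.5 added to each count. Of the 35 such groups, 25 were more than 2-fold higher in the RBFOX2 library, 71.4% (53.7 to 85.4). Most passed the limit through their RBFOX2 positions, since 26 groups had at least 5 of these and 4 had at least 5 enzyme-only positions. The share partly follows from that limit, and is given only beside windows chosen by the same rule. Of 272 single motif windows with at least 5 positions 59.6% were past that fold, and of 327 exon pieces the length of a single motif window, cut from genes with a pair, 35.8%. Another 4 groups, NT5DC2, RRP9, SLC35A4 and GJA1, were more than 2-fold lower, or 11.4%, against 11.8% of single motif windows and 20.5% of exon pieces. The interval of the paired groups included the share of the single motifs and lay above that of the exon pieces. Windows of pairs are longer, so 9.83% of them reached 5 positions, against 4.52% of single motif windows.

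Whether both members of a pair were flanked by edits could be asked only where their windows were separate. In 124 pairs the starts were at least 107 nt apart, so that no base belonged to both windows. In the RBFOX2 library 18 of these pairs had positions at both motifs, 30 at one motif and 76 at none. The enzyme-only library had 9, 25 and 90. This split was not set beside that of other exonic windows, and the RBFOX2 library had more positions in all. The upstream motif had 70 RBFOX2 positions, 2.46% of its cytosines, and the downstream motif 67, 2.40%. The enzyme-only counts were 39 and 27, 1.37% and 0.966%. The RBFOX2 shares of the upstream and downstream motifs were close to each other.

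Positions were then placed relative to the whole group. Cytosines between the outer motifs had the highest RBFOX2 value, 2.15 (1.85 to 2.48), from 178 positions. The flank 3' of the last motif had 1.85 (1.52 to 2.24) and the flank 5' of the first 1.505 (1.22 to 1.84). The interval between motifs lay just above that of the 5' flank (1.852 against 1.841) and overlapped that of the 3' flank. This narrow separation was not recomputed without CALM2, which had positions between its motifs. Single motifs had 1.70 (1.62 to 1.78) on the 3' side and 1.48 (1.41 to 1.55) on the 5' side. The enzyme-only values were 1.15 (0.867 to 1.49) 5' of the first motif, 0.965 (0.740 to 1.24) between and 0.768 (0.529 to 1.08) 3' of the last. The cytosine of the hexamer itself was rarely listed, at 3 of 752 motifs with RBFOX2-INSCRIBE and 4 with enzyme-only. These were 0.246 (0.0508 to 0.719) and 0.439 (0.120 to 1.12) times the expected number. Single motifs had 0.414 (0.302 to 0.553) and 0.503 (0.361 to 0.683). That cytosine follows G, and these expected numbers do not take the preceding base into account. The cause was not tested.

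The RBFOX2 values were highest within 20 nt of the nearest paired motif. They were 2.32 (1.91 to 2.79) from 1 to 10 nt, 2.16 (1.75 to 2.64) from 11 to 20 nt and 1.55 (1.33 to 1.80) from 21 to 50 nt. Around single motifs they were 1.81 (1.69 to 1.94), 1.69 (1.57 to 1.81) and 1.47 (1.40 to 1.53). The excess around pairs was still present from over 100 nt up to 200 nt, at 1.38 (1.21 to 1.55), where single motifs had 1.18 (1.14 to 1.21) and the intervals only just overlapped. Enzyme-only values around pairs ranged from 0.628 (0.389 to 0.958) at 11 to 20 nt, the only class whose interval excluded 1, to 1.09 (0.882 to 1.34) at 21 to 50 nt.

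**Figure D4:**
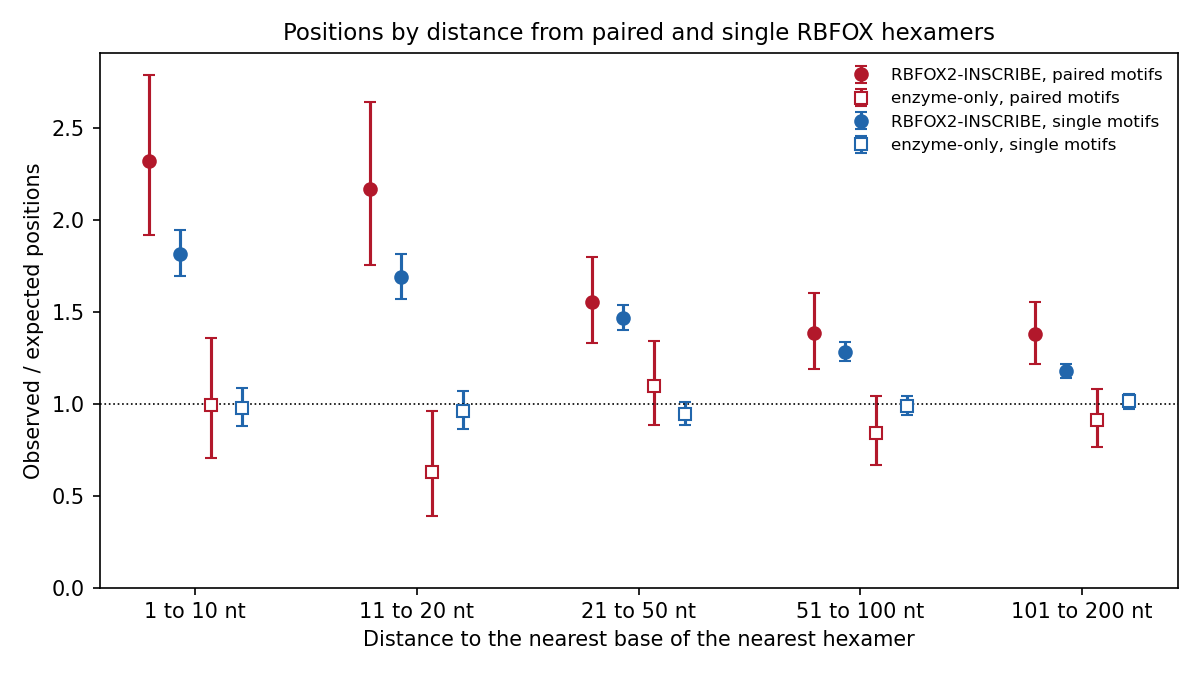
Observed over expected positions (vertical axis) by distance to the nearest base of the nearest hexamer (horizontal axis), for paired motifs in red and single motifs in blue, with filled circles for RBFOX2-INSCRIBE, open squares for enzyme-only and exact 95% intervals of counting error. The RBFOX2 values around pairs go from 2.32 at 1 to 10 nt to 1.38 over 100 nt, and the enzyme-only values stay between 0.628 and 1.09.

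The region of the transcript moved with the difference between paired and single motifs. A group was given the region of its first motif, though some groups, such as those of NT5DC2, UBALD1 and ANKRD16, held motifs of different regions. By GENCODE 44, 162 groups lay in 3'UTRs (45.5%, against 36.2% of single motifs), 89 in coding sequence (25%, against 39.1%), 48 in non-coding exons, 8 in 5'UTRs and 49 outside annotated exons. In 3'UTRs, paired motifs had 278 RBFOX2 positions and a value of 2.49 (2.22 to 2.79), and single motifs 2.19 (2.10 to 2.28). Enzyme-only values there were 1.12 (0.901 to 1.38) and 1.096 (1.02 to 1.18). In coding sequence paired motifs had 72 positions and a value of 1.45 (1.14 to 1.81), and single motifs 1.53 (1.45 to 1.61), with enzyme-only values of 1.30 (0.987 to 1.68) and 1.22 (1.14 to 1.31). Within each of these regions the RBFOX2 intervals of paired and single motifs overlapped. The RBFOX2 share of positions near pairs was 76.6% in 3'UTRs (71.9 to 80.8) and 56.7% in coding sequence (47.6 to 65.5). The 10 RBFOX2 positions near the 49 groups outside annotated exons gave 0.390 (0.188 to 0.712), and the 12 near groups in non-coding exons 0.622 (0.323 to 1.08).

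In the 204 genes that held both a pair and a single motif, the contrast was larger. Paired motifs had 233 RBFOX2 positions there, a value of 2.10 (1.85 to 2.37), and single motifs 135, a value of 1.42 (1.20 to 1.68), while the enzyme-only values were 0.960 (0.766 to 1.19) and 1.05 (0.835 to 1.30). Without CALM2 the values were 2.01 (1.76 to 2.28) and 1.45 (1.22 to 1.70). In the 55 genes with both kinds in the 3'UTR, pairs had a value of 2.68 (2.17 to 3.26) and single motifs 2.48 (1.89 to 3.17), which did not separate. The part of region in the contrast over all 204 genes was not tested further.

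**Figure D5:**
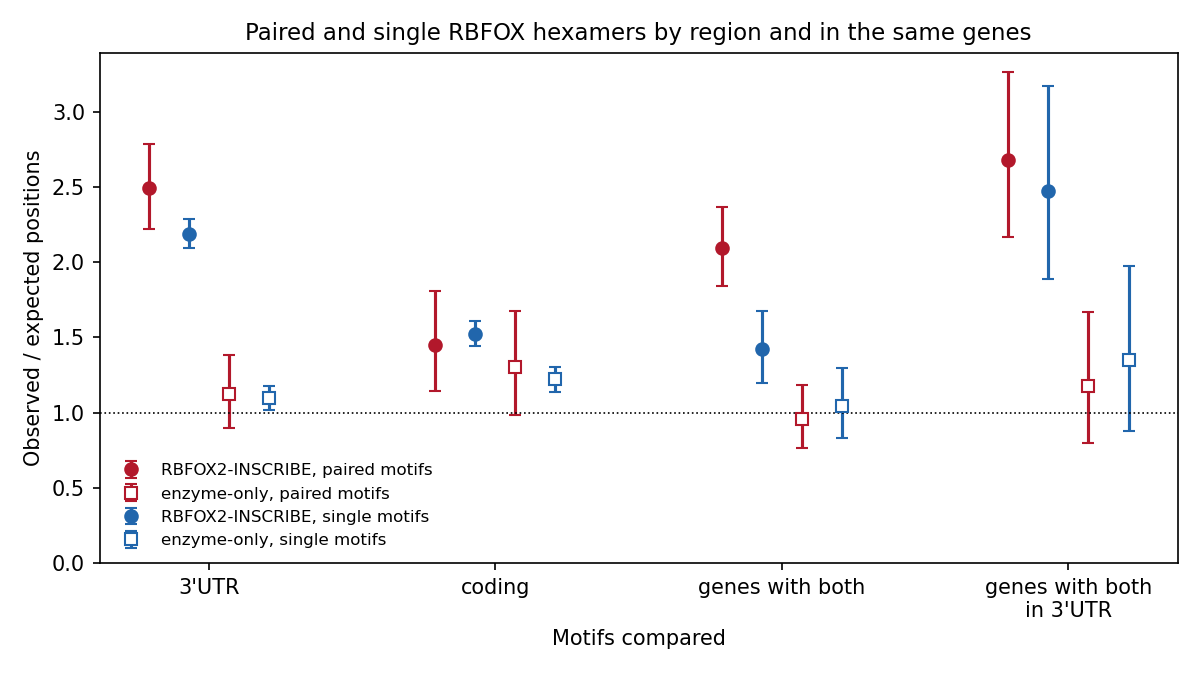
Observed over expected positions (vertical axis) around paired motifs in red and single motifs in blue, in 3'UTRs, in coding sequence, in the genes that hold both kinds and in those that hold both in the 3'UTR (horizontal axis). Filled circles are RBFOX2-INSCRIBE, open squares enzyme-only, and bars exact 95% intervals of counting error. The red and blue RBFOX2 intervals are apart only for the 204 genes with both kinds, at 2.10 and 1.42.

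Positions near pairs were also supported by more reads in the RBFOX2 library. At least 2 converted reads were seen at 115 of 378 RBFOX2 positions (30.4%, 25.8 to 35.3) and at 15 of 153 enzyme-only positions (9.80%, 5.59 to 15.7). The shares were 25.5% (24.0 to 27.0) and 8.66% (7.35 to 10.1) near single motifs, and 14.5% and 9.88% at other exonic positions. At least 5 converted reads were seen at 38 positions near pairs against 1. In sum there were 806 converted reads near pairs with RBFOX2-INSCRIBE and 174 with enzyme-only, and CALM2 gave 24.7% of the former. Restricted to at least 2 converted reads, the RBFOX2 value was 2.77 (2.31 to 3.28) near pairs and 2.42 (2.27 to 2.58) near single motifs, and the intervals overlapped.

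The base before the edited cytosine was A or U at 82.5% of RBFOX2 positions near pairs (78.3 to 86.2) and at 65.4% of enzyme-only positions (57.3 to 72.9), against 46.0% of all cytosines in those windows. Near single motifs the shares were 78.3% (76.9 to 79.7) and 61.5% (59.1 to 63.9), and at other exonic positions 71.5% and 63.9%. The windows themselves differed little in base content, with 53.7% A or U around pairs, 52.9% around single motifs and 51.3% over all exons. When the expected number took this preceding base into account, the RBFOX2 value was 1.74 (1.58 to 1.92) near pairs and 1.53 (1.48 to 1.58) near single motifs, and these intervals just overlapped. U directly followed the hexamer at 33.9% of paired motifs and 29.5% of single motifs.

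Pairs were also counted in a list of 53 genes for splicing regulators. Of these, 33 were in both tables, 25 had an exonic UGCAUG and 5 had a pair. Over all 7735 genes of both tables with a model, 4150 had an exonic UGCAUG and 346 had a pair. The 5 listed genes held 6 groups, with 14 RBFOX2 positions and 1 enzyme-only position. MATR3 supplied 9 of the 14, TIAL1, a U-rich RNA binder, 4 against 0, and PTBP2, the neuronal polypyrimidine tract-binding protein, 1 against 0 over its 2 groups. ELAVL1, which encodes the RNA stabiliser HuR, had 0 against 1. Of 6 genes that the study itself discusses, 5 were in both tables (APP, DCUN1D4, DEPDC1, OGT and RBFOX2), and 0 of them held a pair within 200 nt.

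A regular spacing was seen in ZNF14. The C2H2 zinc finger recurs every 84 nt in coding sequence, and in genes named ZNF 5 of 10 coding spacings were multiples of 84 nt, of which ZNF14 gave 4 and ZNF664 gave 1. The other 5 were 159 to 195 nt. Among all 396 spacings there were 8. ZNF14 held 4 motifs spaced by 84 or 168 nt in one group, with 0 positions in either library. The 12 groups of ZNF genes together had 5 RBFOX2 positions and 4 enzyme-only positions.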

How the data were processed

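The authors sequenced RBFOX2-INSCRIBE and enzyme-only libraries of fixed HEK293T cells on a PacBio instrument (1 of each is analysed here). They used pbmm2 to place the full-length reads on hg38 and called C-to-U edits with custom scripts. The tables deposited by the authors give, per cytosine, the count of converted reads, the count of reads of the whole gene, the edit fraction (conversions over gene reads) and a confidence score, which was not used. A deposited GFF gives isoform models without values. All 225811 listed rows were cytosines on the listed strand.

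The members and lists were chosen with earlier results of these data known. Positions listed in both libraries were left out. Groups were chains of motifs with neighbouring starts at most 200 nt apart, and windows reached 50 nt. Expected numbers spread each gene's exonic positions over its exonic cytosines. Regions are from GENCODE 44, with coding sequence taken first. For an observed over expected value, the interval is that of the set's positions as a share of its genes' exonic positions. That interval was divided by the expected share. The script was checked against planted values on simulated positions drawn at random within each gene. Real positions gathered in some groups, such as CALM2 and ENAH, which neither that check nor the intervals cover. Named were the 10 groups with most positions, the 5 highest and 5 lowest by scaled log2 ratio among those with at least 5 positions, the 3 with most motifs, those in 6 genes the study discusses, and per spacing class the group with most RBFOX2 positions. Python 3.11.15, numpy 2.4.6, pandas 2.3.3, scipy 1.17.1 and pysam 0.24.0 were used. Values of some genes are not reported here.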

Additional observations from a re-analysis of the deposited data

How the results depend on the processing

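Of 71 recomputed values, 50 stayed within the interval or margin of the reported value, 21 moved and 0 reversed. With a window of 20 nt the RBFOX2 and enzyme-only libraries had 210 and 63 positions near pairs, observed over expected values of 2.01 and 0.779 and an RBFOX2 share of 76.9%. A window of 100 nt gave 234 enzyme-only positions. A spacing of up to 100 nt left 192 and 83 positions. Asking for at least 2 converted reads left 115 and 15 positions, a value of 2.77 and a share of 88.5%. In genes with 500 reads or more this limit removed no position, because listing already needed 2 converted reads or more there. The spacing classes then had 7.68 (1 to 10 nt, from ID4 and FTH1 alone), 1.45 (11 to 25 nt), 3.13 (26 to 50 nt), 2.44 (51 to 100 nt), 2.18 (over 100 nt) and 6.85 (3 or more motifs), the cause of which was not tested. The ratio of paired to single motifs, 1.16, became 1.47 in genes with both kinds, 1.39 there without CALM2 and 1.08 in the 55 genes with both in the 3'UTR. For the ratio of paired to single motifs, the alternatives without CALM2, with a window of 20 nt and within the 3'UTR, and for the spacing classes those without the leading group of a class were chosen after seeing the data. Keeping cytosines listed in both libraries moved the enzyme-only value to 1.07, across 1 but within its interval. With at least 10 positions a group, 8 groups were compared, 4 higher and 2 lower. No paired analysis was possible because each group has 1 library. Depth limits what single groups show: the reads that cross a base are unknown, and a count of 0 allows a share of several percent.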
